A study of Mus musculus with 16 samples.

Results

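The insulin-like growth factor (IGF) axis of the mouse thoracic aorta was followed through 9 genes: the ligands Igf1 and Igf2, the receptor gene Igf1r, and the binding proteins Igfbp2, Igfbp3, Igfbp4, Igfbp5, Igfbp6 and Igfbp7. The members were taken by gene symbol, and each of the 9 symbols matched 1 of the 31055 features of the count matrices. Single-cell libraries came from male mice on the 129S6/SvEv background that all carried a tamoxifen-inducible Cre recombinase driven by the smooth muscle gene Myh11. After tamoxifen, given postnatally, Smad3, a transcription factor of TGF-β signalling, was inactivated in vascular smooth muscle cells (VSMCs) of Smad3SmKO mice. Smad3+/+ mice kept it. Aortas from root to arch were digested to live, sorted single cells at 10-weeks post-deletion (2 Smad3+/+ and 2 Smad3SmKO libraries) or at 18-weeks post-deletion (5 Smad3+/+ and 7 Smad3SmKO libraries), with 1 mouse to a library. The labels give a Myh11-GFP tracer to 7 of these libraries: both Smad3+/+ libraries at 10 weeks and, at 18 weeks, Smad3+/+ replicates 4 and 5 and Smad3SmKO replicates 5 to 7. By label the tracer therefore cannot be told apart from genotype at 10 weeks or from a longer digestion at 18 weeks. The GFP counts did not follow all of these labels, as given below. Because Cre is confined to Myh11-lineage cells, fibroblasts, endothelium and leukocytes carry Smad3 in both genotypes by design.

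IGF ligands signal through a receptor tyrosine kinase that drives growth and survival, and VSMCs and fibroblasts are both classical targets. In extracellular fluid most IGF is held by binding proteins, which can extend its half-life, withhold it from the receptor, or release it when proteases of the pappalysin family cut them. IGFBP7 differs from the others in binding IGF only weakly. It was therefore asked which cells of the aorta carried the RNA of each component, whether the levels differed between subsets of a cell type, and whether they differed between genotypes.

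Each cell was assigned by gates that used no member. VSMCs held at least 5 unique molecular identifiers (UMIs, counted RNA molecules) of Myh11 and more of it than of Dcn, and fibroblasts the reverse. Endothelium held at least 2 UMIs of Pecam1 and Cdh5 together, and leukocytes at least 2 of Ptprc and Tyrobp together. A level is given below as CPM, the UMIs of a gene scaled to 1000000 UMIs of all cells of that type in a library, without correction for gene length, so levels are compared between cells and never between genes.

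The gene pair on which the results turned most lies side by side on chromosome 1. In the mm10 assembly with GENCODE M21 annotation, Igfbp2 spans chr1:72824503-72852474 on the plus strand and Igfbp5 spans chr1:72857932-72874884 on the minus strand, so that the genes converge with 5457 bases between their 3′ ends. The 250 bases before each RefSeq start (GRCm38.p6) are shown because these neighbours differed in opposite directions between VSMC subsets, with the letters GTCT or AGAC, the core bound by Smad proteins, in capitals wherever they stood on either strand. The first window is chr1:72824230-72824479 on the plus strand and the second chr1:72874866-72875115 on the minus strand, both written 5′ to 3′.
Igfbp2: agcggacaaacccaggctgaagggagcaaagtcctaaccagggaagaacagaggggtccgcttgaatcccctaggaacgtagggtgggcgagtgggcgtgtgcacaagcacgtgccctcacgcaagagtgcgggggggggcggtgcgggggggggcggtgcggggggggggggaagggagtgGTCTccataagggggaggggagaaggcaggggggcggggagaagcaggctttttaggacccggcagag
Igfbp5: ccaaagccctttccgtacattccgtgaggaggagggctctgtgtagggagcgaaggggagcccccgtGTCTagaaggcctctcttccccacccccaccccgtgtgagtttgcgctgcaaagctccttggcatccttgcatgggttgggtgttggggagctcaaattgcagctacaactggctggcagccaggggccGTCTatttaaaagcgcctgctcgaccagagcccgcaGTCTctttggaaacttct
The Igfbp2 window held 1 match and the Igfbp5 window 3, against a median of 2 over 32851 mouse promoter windows of the same length, of which 82.9% held at least 1. Neither window held the longer CAGAC or its reverse complement GTCTG, which 42.2% of windows did. The pair was chosen after its subset values were seen, and Smad binding to either window was not tested. The other members lie apart from this pair: Igf1 on chr10:87858265-87937042 (plus), Igf2 on chr7:142650766-142666816 (minus), Igf1r on chr7:67952827-68233668 (plus), Igfbp3 on chr11:7206086-7213923 (minus), Igfbp4 on chr11:99041244-99054392 (plus), Igfbp6 on chr15:102144362-102149511 (plus) and Igfbp7 on chr5:77349240-77408041 (minus).

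The libraries held 66349 cells, of which 50858 passed the limits on genes, UMIs and mitochondrial share, with 12539539 to 52843031 UMIs a library. The gates found 8950 VSMCs, 36066 fibroblasts, 3303 endothelial cells and 3357 leukocytes, and 2442 cells passed more than 1 gate. The endothelial gate was the least clean, since 1813 of its 3303 cells also passed the fibroblast gate, and its summed fibroblast markers reached 19529 CPM, so its values are also given for cells that passed 1 gate only. Those were few, and the Smad3SmKO replicate 7 at 18 weeks held 3 of them. That library counts in the medians and ranges of 1-gate cells, whereas the fits left out sums of fewer than 10 cells. The 1-gate endothelial cells also carried markers of other types. Their summed pericyte markers ran from 93.0 to 14432 CPM and their VSMC markers from 149 to 4948 CPM. The fibroblasts of that same library, 196 cells, also stood apart: 5.61% of them carried more Pi16 and Dpp4 than Col15a1, compared with at least 68.9% elsewhere, and their summed VSMC markers reached 11672 CPM. Smad3 RNA did not check the genotype labels. In VSMCs it ranged from 2.83 to 17.3 CPM. Its log2 difference was 0.45 at 10 weeks and 0.04 at 18 weeks, neither of which passed the test. The study itself reported significantly reduced Smad3 RNA and protein in Smad3SmKO aortas, by qPCR relative to Myh11 and by immunoblot. The label for a GFP tracer and the GFP UMIs disagreed in 4 libraries. Smad3SmKO replicates 1 and 2 at 10 weeks had no tracer by label but held 249 and 149 GFP UMIs. Smad3+/+ replicates 4 and 5 at 18 weeks had it by label but held 0. By these counts both genotypes carried GFP at 10 weeks, whereas at 18 weeks only Smad3SmKO replicates 5 to 7 did. The barcode of 4869 kept cells also stood in another library. The pair that shared most, Smad3+/+ replicates 4 and 5 at 18 weeks, had 3507 barcodes in common, 73% of the smaller library, and 1787 of the 2912 kept cells of replicate 4 had a barcode found in some other library. Leaving out the 48 kept cells whose barcode held at least 5 times its UMIs in another library changed no call of a member.

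Between fibroblasts and VSMCs the axis was divided. Fibroblasts carried more Igf1 and more of most binding proteins, and VSMCs carried more receptor RNA and nearly all of the Igfbp2. Endothelium was also high in Igfbp3 and Igfbp5. Igf1, the main IGF ligand after birth, was lowest in VSMCs, with 5.71, 12.2 and 19.3 CPM as lowest, median and highest of 16 libraries. Its fibroblast levels were 45.0, 494 and 827 CPM, and the ranges did not overlap. The paired edgeR quasi-likelihood test with Benjamini-Hochberg adjustment gave a log2 difference of -5.08 (SE 0.26, adjusted p = 1.94e-23, lower in VSMCs in 16 of 16 libraries). The median leukocyte level of 121 CPM lay between them, with VSMCs below leukocytes (log2 difference -3.39) and fibroblasts above them (1.69). In the endothelial gate the median of Igf1 was 328 CPM, but it was 63.6 CPM in endothelial cells that passed no other gate, and the fibroblast excess over endothelium grew from 0.79 to 3.05 on the log2 scale.

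Igf2, the ligand that predominates before birth, was close to absent. It gave 7 UMIs in all VSMCs, 19 in fibroblasts, 14 in the endothelial gate and 0 of 25854650 UMIs in leukocytes, where a count of 0 allows a level of up to 0.116 CPM. It passed the filter on low counts in no comparison, so that 8 of the 9 members were tested.

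Igf1r, the receptor tyrosine kinase, was highest in VSMCs. Its lowest, median and highest levels were 57.4, 77.9 and 128.03 CPM in VSMCs and 27.2, 38.1 and 77.6 CPM in fibroblasts. The highest fibroblast value came from the library with few Pi16 and Dpp4 cells, and the ranges overlapped, yet VSMCs were above fibroblasts within each of the 16 libraries (log2 difference 1.03, SE 0.10, edgeR adjusted p = 3.97e-13). VSMCs also exceeded endothelium by 1.11 (SE 0.11) and leukocytes by 1.36 (SE 0.12). Fibroblasts and endothelium, neighbours in this order, differed by 0.08 (SE 0.11, adjusted p = 0.621), which did not pass the test.

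Igfbp2, a binding protein found in serum and many tissues, was the member most confined to VSMCs. It was spread widely there, from 10.7 through a median of 356 to 1541 CPM, but ran from 0.350 through 7.12 to 92.7 CPM in fibroblasts. The log2 difference was 6.14 (SE 0.43, edgeR adjusted p = 2.79e-18, higher in VSMCs in 16 of 16 libraries). Endothelial cells that passed 1 gate had a median of 0 CPM and a highest value of 16.5 CPM. A UMI of Igfbp2 was found in 3130 of 8950 VSMCs (35.0%), compared with 780 of 36066 fibroblasts (2.16%).

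Igfbp3, the main serum carrier of IGF, was low in VSMCs and leukocytes. VSMCs had 0 to 20.2 CPM with a median of 1.48, fibroblasts 15.98 to 219.8 CPM with a median of 94.6, and endothelial cells of 1 gate 26.2 to 383 CPM with a median of 171. The log2 difference was -5.29 (SE 0.38) from fibroblasts and -5.03 (SE 0.39) from endothelium. Fibroblasts and endothelium did not pass the test (0.26, SE 0.27, adjusted p = 0.495), and with 1-gate cells the value was -0.39. Leukocytes of 1 gate had 0 to 5.18 CPM, and VSMCs differed from them by 0.06, which did not pass the test, although the value over all gated cells was -2.40 and passed.

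Igfbp4, which restrains IGF until PAPP-A cleaves it, was a fibroblast gene that VSMCs shared at a lower level. Its lowest, median and highest levels were 131.7, 244 and 413 CPM in VSMCs and 1313, 2175 and 2757 CPM in fibroblasts, without overlap (log2 difference -3.01, SE 0.15, adjusted p = 2.88e-23). Leukocytes held 113, 365 and 658 CPM. Fibroblasts exceeded leukocytes by 2.30 (SE 0.15), whereas leukocytes and VSMCs were neighbours whose difference was called over all gated cells (-0.71) but not over 1-gate cells (-0.19).

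Igfbp5, a matrix-bound binding protein, was high in fibroblasts and endothelium. Fibroblasts held 23.1, 925 and 1581 CPM and VSMCs 10.9, 33.9 and 433 CPM as lowest, median and highest (log2 difference -3.91, SE 0.36, adjusted p = 6.14e-14). Endothelial cells of 1 gate ranged most widely, from 58.1 through 347 to 4259 CPM. Their difference from fibroblasts was 0.08 (SE 0.30, adjusted p = 0.897) in all gated cells and 0.46 in 1-gate cells, and neither passed the test.

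Igfbp6, the binding protein that prefers IGF-II, was the member with the steepest fall from fibroblasts to VSMCs. Fibroblasts held 17.2, 583 and 1983 CPM as lowest, median and highest, whereas VSMCs held 0.555, 5.43 and 51.2 CPM. The log2 difference was -6.32 (SE 0.28, adjusted p = 1.68e-25, lower in VSMCs in 16 of 16 libraries). In endothelial cells of 1 gate the median was 41.9 CPM and in leukocytes of 1 gate 29.2 CPM, and the difference of those was -0.00136 on the log2 scale.

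Igfbp7, the weak IGF binder that is secreted into vascular matrix, was shared by both mesenchymal types. It was found in 99.9% of VSMCs and 99.9% of fibroblasts. VSMCs ranged from 4495 to 13292 CPM with a median of 9434, and fibroblasts from 5689 to 12522 CPM with a median of 8058, a log2 difference of 0.25 (SE 0.17, adjusted p = 0.203) that did not pass the test. Endothelial cells of 1 gate had a median of 4316 CPM, and VSMCs exceeded endothelium by 0.73 (SE 0.17) in all gated cells and by 1.43 in those. Igfbp7 was lower in leukocytes, at 88.5 CPM in the median library of 1-gate cells, and VSMCs exceeded them by 3.18 in all gated cells and 5.81 in 1-gate cells.

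**Figure D1:**
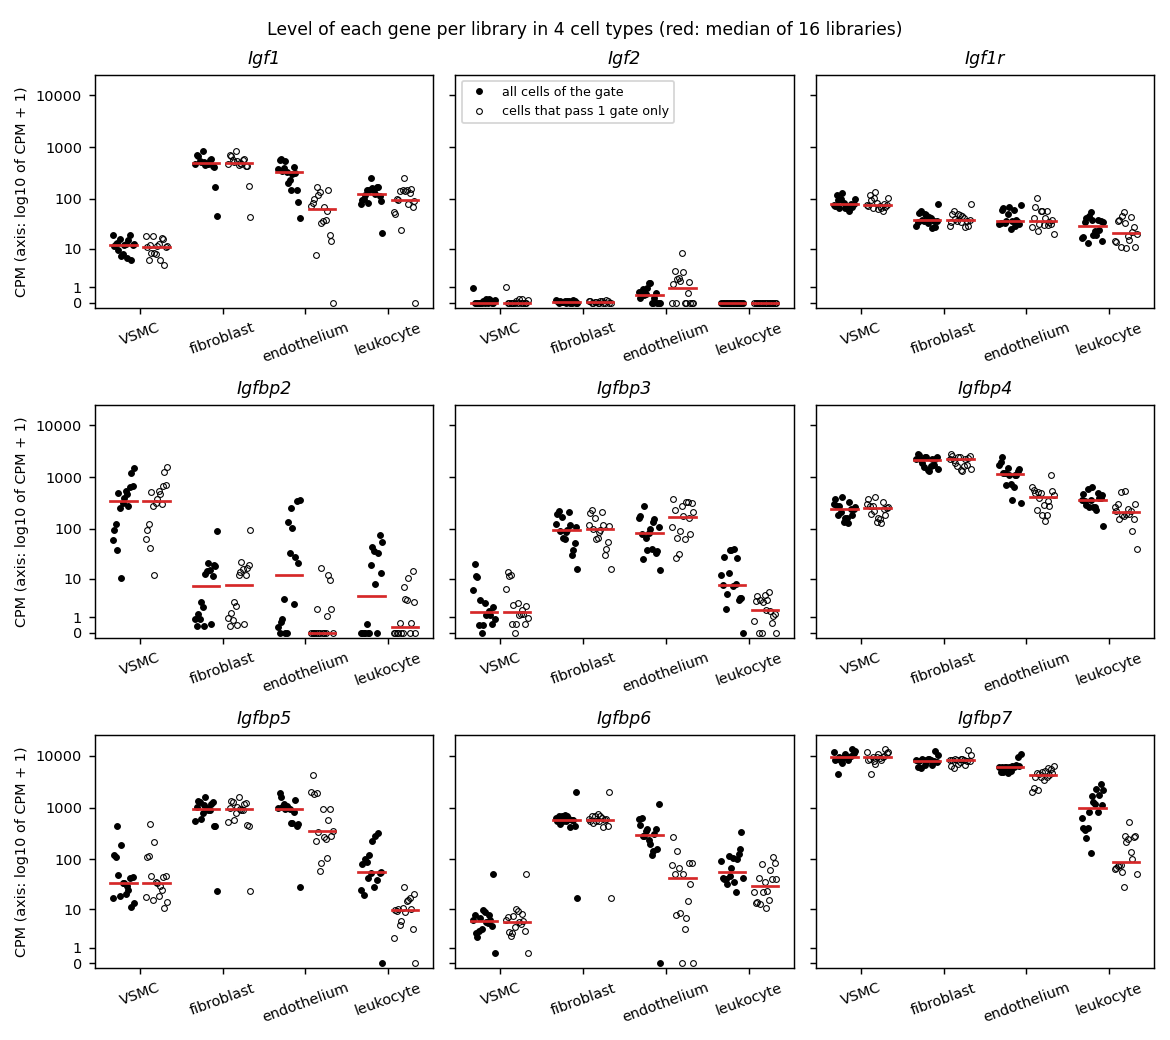
Level of each of the 9 members in 4 cell types of 16 libraries, in CPM on a log10(CPM + 1) axis; filled points are all cells of a gate, open points cells that passed 1 gate only, and red lines the median library. Igfbp2 sat highest in VSMCs (median 356 CPM), Igf1, Igfbp4 and Igfbp6 sat highest in fibroblasts (medians 494, 2175 and 583 CPM), and Igf2 lay at or near 0 in all of them.

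Most genes differ between cell types, so the counts of members are read against that background. Of the 8 members tested, 2 were higher and 5 lower in VSMCs than in fibroblasts, where 70.5% of all 12059 genes passed the test in either direction. The members' median log2 difference there was -3.46, beside -0.04 over all genes. Against endothelium 3 were higher and 5 lower (64.9% of genes), and against leukocytes 3 were higher and 4 lower (80.0% of genes). Fibroblasts exceeded endothelium in 4 members and were below it in 1 (36.2% of genes), and exceeded leukocytes in 7 (77.0% of genes), as did endothelium (74.3% of genes). The member below endothelium was Igfbp2 (-1.96), and with cells that passed 1 gate only this value was 1.81. Under that restriction 4 members were higher and 2 lower in VSMCs than in leukocytes, and the members' median log2 difference turned from -0.72 to 0.72. Also, 4 of the 8 members instead of 7 separated endothelium from leukocytes, and Igf1 was lower in endothelium (-1.12) where it had been higher (0.90).

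Low member levels in VSMCs were set beside those of fibroblast markers. Fibroblast markers that took no part in the gates stood in VSMCs at a median of 1.13% to 3.16% of their fibroblast level. Igf1 in VSMCs stood at 2.17% of its fibroblast level, Igfbp3 at 2.95% and Igfbp6 at 1.09%, which is within or below that range, while Igfbp5 stood at 3.43% and Igfbp4 at 12.9%. In the other direction VSMC markers in fibroblasts stood at 0.759% to 8.82% of their VSMC level, and Igfbp2 at 1.93%. The part of free RNA in the low values was not tested.

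Within VSMCs, Igfbp2 and Igfbp5 marked opposite subsets. The 933 cells with more Notch3 and Enpep than Ptprz1 and Tes, genes by which the study placed VSMCs in the root and proximal ascending aorta, were compared with the 5966 cells of the reverse kind, placed more distally, within the 14 libraries that held at least 10 cells of both. Igfbp5 was 21.6, 72.1 and 919 CPM (lowest, median and highest of the 16 libraries with such a sum) in the Notch3 and Enpep cells and 0, 16.6 and 31.0 CPM (of 14 libraries) in the Ptprz1 and Tes cells. The paired log2 difference was 2.55 (SE 0.23, edgeR adjusted p = 7.17e-09, higher in 14 of 14 libraries). Igfbp2 went the other way, with 0, 119 and 1140 CPM in the Notch3 and Enpep cells and 16.9, 554 and 1810 CPM in the Ptprz1 and Tes cells. Its log2 difference was -1.50 (SE 0.22, adjusted p = 8.44e-06), and it was lower in 12 of 14 libraries. The gated VSMCs also held pericyte marker RNA, whose sum ran from 143 to 1365 CPM a library. The part of pericytes in the subset differences was not tested. Mgp, which the study also found enriched in the root, took no part in the split.

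Igfbp4 followed Igfbp5, with 362 ± 114 CPM (SD, n = 16) in the Notch3 and Enpep cells compared with 186 ± 59.9 (SD, n = 14) in the others (log2 difference 0.93, SE 0.08, adjusted p = 1.37e-09, higher in 14 of 14 libraries). The difference of Igf1r was small (0.20, SE 0.07, adjusted p = 0.0388, higher in 10 of 14 libraries) and was lost without the filter on low counts, with total UMIs in place of TMM, and in 6 of the fits that left out a library. Igfbp7 stood at 0.08 (SE 0.04, adjusted p = 0.155) and did not pass the test. Igf1, Igf2, Igfbp3 and Igfbp6 did not reach the filter on counts. Of 5 members tested, 3 were higher and 1 was lower in the Notch3 and Enpep cells, whereas 25.5% of 6697 genes passed in either direction.

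Within fibroblasts, the binding proteins again split. The 28036 cells with more Pi16 and Dpp4 than Col15a1, which mark adventitial progenitor-like fibroblasts in many tissues, were compared with the 3692 cells of the reverse kind in all 16 libraries. Igfbp6 was 739 ± 417 CPM in the Pi16 and Dpp4 cells and 246 ± 135 CPM in the Col15a1 cells (SD, n = 16), a log2 difference of 1.73 (SE 0.20, adjusted p = 1.86e-06) that had the same sign in 16 of 16 libraries. Igfbp3 was 66.3 ± 37.7 and 242 ± 169 CPM, a difference of -1.72 (SE 0.11, adjusted p = 1.34e-09), lower in 16 of 16 libraries.

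Igf1 was 529 ± 183 CPM in the Pi16 and Dpp4 cells and 362 ± 143 CPM in the Col15a1 cells (difference 0.59, SE 0.10). Igfbp5 (0.87, SE 0.09), Igfbp4 (0.62, SE 0.09) and Igfbp7 (0.21, SE 0.06) were also higher in the Pi16 and Dpp4 cells, and Igfbp2 was lower (-1.85, SE 0.36). Igf1r stood at 0.03 (SE 0.06, adjusted p = 0.834). Each of these calls held without Smad3SmKO replicate 7, where Igfbp6 stood at 1.63 and Igfbp3 at -1.72. In all, 5 of 8 members were higher and 2 lower, where 22.6% of 11341 genes passed in either direction.

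Leukocytes divided along ligand and receptor. The 1908 cells with at least 3 UMIs of the complement genes C1qa, C1qb and C1qc, which mark resident macrophages, were compared with the 1314 cells that held none, in 15 libraries. In cells that passed 1 gate only, Igf1 was 30.6, 151 and 338 CPM (lowest, median, highest) in the C1q-positive cells and 0, 3.61 and 28.1 CPM in the C1q-negative cells. Its log2 difference was 3.74 (SE 0.42) there and 0.88 (SE 0.30, adjusted p = 0.0230) in all gated cells. Igf1r lay the other way, with 11.5 ± 7.003 CPM (SD, n = 15) compared with 71.0 ± 49.0 (SD, n = 14), a log2 difference of -2.95 in 1-gate cells and -2.45 (SE 0.22, adjusted p = 1.32e-08, lower in 15 of 15 libraries) in all gated cells.

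Igfbp4 was 316 ± 136 CPM in C1q-positive and 39.2 ± 24.3 CPM in C1q-negative leukocytes of 1 gate (2.68, SE 0.26), but it stood at 0.13 (adjusted p = 0.698) when cells of several gates were kept. Igfbp6 was lower in the C1q-positive cells, with log2 differences of -2.57 in 1-gate cells and -2.25 in all gated cells. The lower Igfbp7 (-1.76) and Igfbp5 (-1.79, adjusted p = 0.0189) of all gated cells did not hold in 1-gate cells, where Igfbp7 stood at -0.32 and did not pass and Igfbp5 did not reach the filter on counts. Igf2, Igfbp2 and Igfbp3 did not reach the filter in these subsets. Of 6 members tested in all gated cells, 1 was higher and 4 were lower, and 43.5% of 5021 genes passed in either direction.

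**Figure D2:**
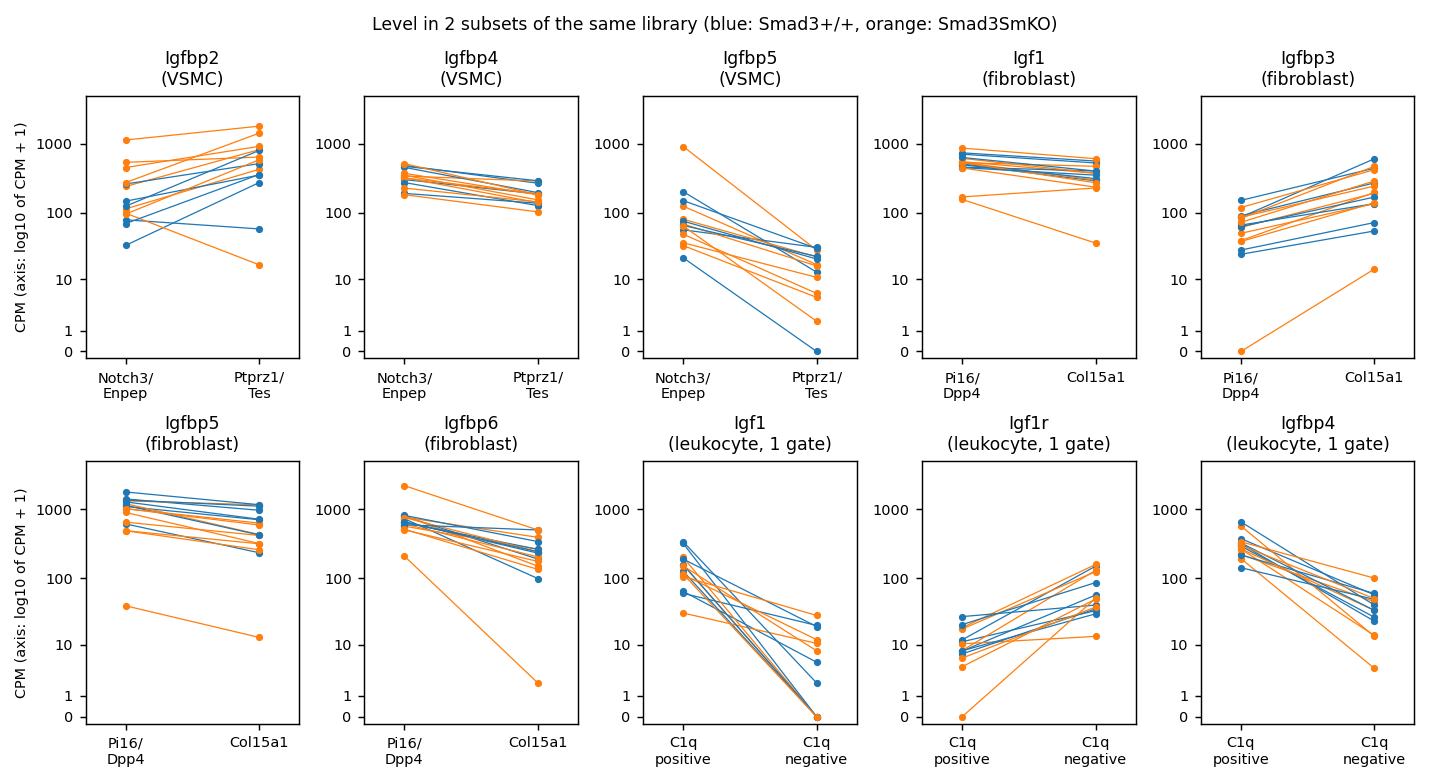
Level of members in 2 subsets of the same cell type, in CPM, with lines joining the subsets of a library (blue Smad3+/+, orange Smad3SmKO). Lines for Igfbp5 in VSMCs rose toward the Notch3 and Enpep cells in 14 of 14 libraries and those for Igfbp2 fell in 12 of 14, while Igf1 and Igf1r in leukocytes of 1 gate sloped in opposite directions.

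No member passed the genotype test in any cell type. In simulated data, 6 of 48 genes with a true 2-fold rise and 6 of 45 with a 2-fold fall were called in VSMCs. Fibroblasts gave 20 of 50 and 15 of 48. For true 4-fold changes the counts were 36 of 50 and 32 of 48 in VSMCs, and 49 of 50 and 46 of 49 in fibroblasts. Changes of 2-fold would thus mostly be missed, and counts of 0 are not read as absence of a genotype effect. The edgeR model compared Smad3SmKO with Smad3+/+ at 10 weeks, at 18 weeks and in the difference of the 2 times. The library batch was a term. Smad3SmKO replicates 5 and 7 at 18 weeks shared a batch that held no Smad3+/+ library. They therefore bore on the spread but not on the 18-week difference, which rested on the other Smad3SmKO libraries. In VSMCs 0 of 8 members passed in any of these comparisons. Of 11852 genes, 0% passed at 10 weeks, 0.0422% at 18 weeks and 0.00844% in the difference. At an unadjusted p under 0.05 the members counted 0, 2 and 2, and all genes 220, 582 and 305. By DESeq2, 1, 8 and 2 of all genes passed. The lowest adjusted p of a member was 0.81. Their median log2 difference was -0.09 at 10 weeks and -0.03 at 18 weeks, beside -0.01 over all genes at either time.

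Igfbp5 had the smallest unadjusted p in VSMCs. At 10 weeks it was 34.5 and 33.4 CPM in Smad3+/+ and 20.1 and 30.1 CPM in Smad3SmKO libraries. At 18 weeks it was 17.0, 120, 110, 25.1 and 42.2 CPM in Smad3+/+ replicates 1 to 5 and 433, 49.9, 18.5, 192, 10.9, 44.1 and 13.2 CPM in Smad3SmKO replicates 1 to 7, so that the groups overlapped. The batch-adjusted log2 difference at 18 weeks was 0.97 (SE 0.27, edgeR quasi-likelihood, adjusted p = 0.813), and the values within batches 1, 2, 3 and 6 were 0.97, 1.96, 0.68 and 0.38. The fit gave 0.65 to 1.22 when single libraries were left out, 0.43 without the batch term and 0.47 without VSMCs that held heart muscle or pericyte UMIs. The highest library, Smad3SmKO replicate 1, also had the highest pericyte marker sum in its VSMCs, 1365 CPM compared with 143 to 934 elsewhere. The part of those markers in its Igfbp5 level was not tested.

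Igfbp6 in VSMCs rested on 1 library. It was 9.72 and 8.79 CPM in Smad3+/+ and 5.19 and 5.02 CPM in Smad3SmKO libraries at 10 weeks, and 5.66, 7.45, 2.83, 7.49 and 5.77 CPM in Smad3+/+ libraries at 18 weeks. The 7 Smad3SmKO libraries at 18 weeks held 2.16, 3.15, 6.52, 3.56, 4.18, 51.2 and 0.555 CPM. The log2 difference at 18 weeks was 2.02 (SE 0.60, adjusted p = 0.851) with replicate 6 and -0.60 without it. That library also had the highest fibroblast marker sum in its VSMCs (540 CPM) and the highest Igfbp6 in its fibroblasts, and their part in the value was not tested.

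The change of genotype difference from 10 to 18 weeks was 1.39 for Igfbp5 (SE 0.44, adjusted p = 1) and 2.84 for Igfbp6, the latter 0.22 without replicate 6. Without the filter on low counts, Igfbp5 at 18 weeks was called (0.95, adjusted p = 1.44e-05), as was Igfbp6 (2.01, adjusted p = 8.48e-08). That fit used 19090 genes, of which it called 134. The 10-week libraries formed batch 4 and were digested for 60 min. Batches 1, 2 and 3 at 18 weeks were digested for 30 min. The change of genotype difference between the times therefore also sets unlike digestions side by side.

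The remaining members in VSMCs overlapped between genotypes at 18 weeks. Igfbp2 was 61.3, 95.3, 123, 283 and 656 CPM in Smad3+/+ libraries and 39.0, 506, 251, 10.7, 1209, 675 and 1541 CPM in Smad3SmKO libraries. The spread within each genotype exceeded the difference (0.33, SE 0.55), and the values within batches 1, 2, 3 and 6 ran from -3.04 to 2.61. Igf1r was 80.2 ± 21.6 CPM (SD, n = 5) and 91.2 ± 21.5 CPM (SD, n = 7), a difference of 0.19 (SE 0.19). Igfbp7 stood at -0.30 (SE 0.19), Igfbp4 at -0.25 (SE 0.17), Igf1 at -0.51 (SE 0.36) and Igfbp3 at -0.81 (SE 0.72).

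At 10 weeks, with 2 libraries a group, values of the genotypes fell apart without overlap for 28.2% of all genes in VSMCs. The members did so for 1 that was higher, Igfbp2 (478 and 545 CPM in Smad3SmKO, 319.7 and 392 CPM in Smad3+/+), and for 3 that were lower, Igfbp5, Igfbp6 and Igfbp7, a share read against that background. At 18 weeks it was 0 of 8 members and 0.186% of genes.

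**Figure D3:**
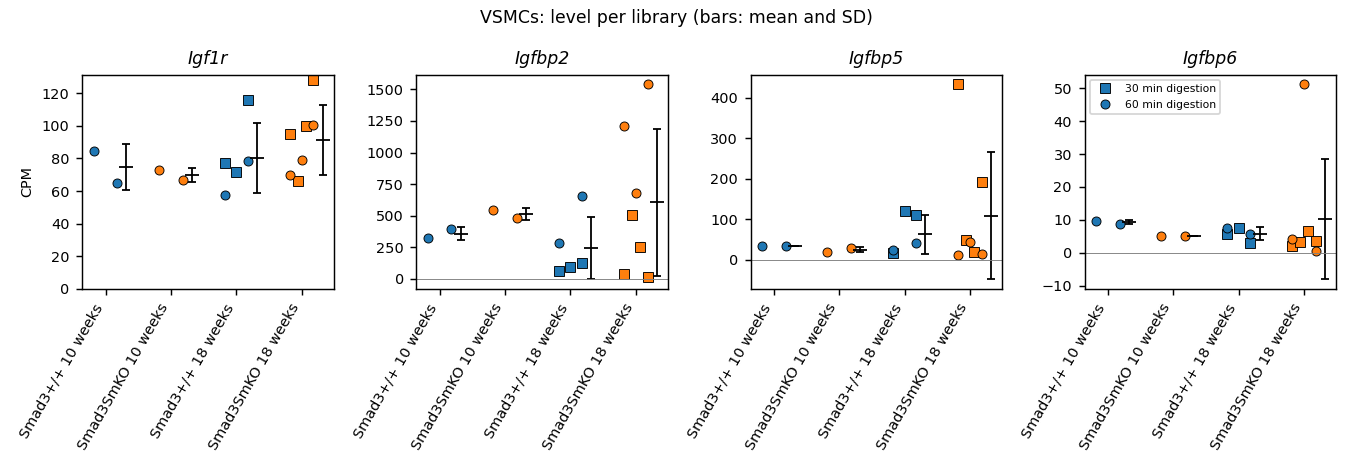
Level of Igf1r, Igfbp2, Igfbp5 and Igfbp6 in VSMCs by genotype and weeks post-deletion, in CPM, with 1 point a library (squares 30 min, circles 60 min of digestion) and bars for mean and SD. Groups overlapped at 18 weeks in all 4 panels, and single Smad3SmKO libraries set the highest values of Igfbp5 (433 CPM) and Igfbp6 (51.2 CPM).

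In fibroblasts, which Cre does not target, 0 of 8 members passed, where 0% of 14626 genes passed at 10 weeks, 0% at 18 weeks and 0% in the difference. All genes counted 119, 363 and 130 and the members 0, 0 and 0 at an unadjusted p under 0.05, and DESeq2 passed 3, 3 and 1 of all genes. The members' median log2 difference was 0.09 at 10 weeks and -0.04 at 18 weeks, beside -0.02 and 0.01 over all genes. Igf1 was 578 ± 122 CPM in Smad3+/+ (SD, n = 5) and 434 ± 259 CPM in Smad3SmKO libraries (SD, n = 7) at 18 weeks, a log2 difference of -0.45 (SE 0.52). Its Smad3SmKO values ran from 45.0 through 507 to 827 CPM and enclosed the Smad3+/+ values of 436 to 701 CPM.

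Igfbp5 was 1074 ± 318.2 and 664 ± 423 CPM at 18 weeks (-0.27, SE 0.59), and Igfbp6 602 ± 51.8 and 693 ± 612 CPM (0.54, SE 0.61). The wide Smad3SmKO spread of Igfbp6 came from replicate 7 at 17.2 CPM and replicate 6 at 1983 CPM. Without those replicates Igf1 stood at -0.05, Igfbp5 at 0.13, Igfbp6 at -0.05 and Igfbp3 at -0.94 (SE 0.39, adjusted p = 0.886). Again no member passed. Replicate 7 had no Smad3+/+ library in its batch, so it bore on the spread of the fit and not on these differences. Igfbp3 was 122 ± 87.8 and 81.1 ± 49.1 CPM (-0.05, SE 0.53). Igf1r stood at 0.34 (SE 0.23), Igfbp2 at 1.18 (SE 0.76), Igfbp4 at -0.10 and Igfbp7 at -0.03. At 10 weeks Igfbp2 and Igfbp3 were higher and Igfbp5 was lower in Smad3SmKO without overlap, where 22.7% of genes had no overlap, and at 18 weeks all 8 tested members overlapped, where 0.0615% of genes did not.

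**Figure D4:**
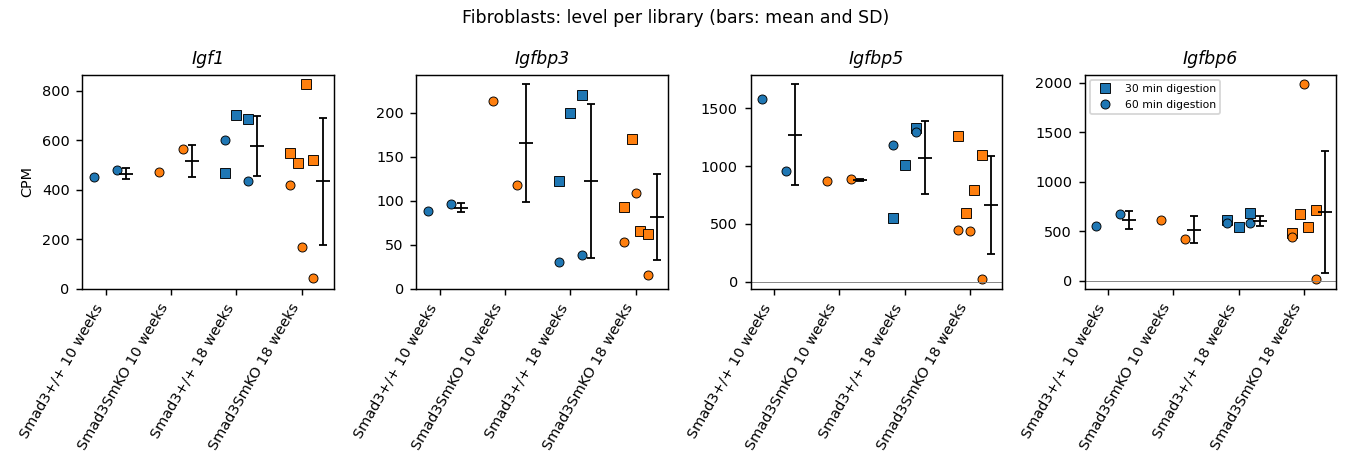
Level of Igf1, Igfbp3, Igfbp5 and Igfbp6 in fibroblasts by genotype and weeks post-deletion, in CPM, with 1 point a library (squares 30 min, circles 60 min of digestion) and bars for mean and SD. The genotypes overlapped at 18 weeks in all 4 panels, and the lowest Igf1, Igfbp5 and Igfbp6 (45.0, 23.1 and 17.2 CPM) were from the same Smad3SmKO library, replicate 7.

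Endothelium and leukocytes gave 0 of 8 members as well. In endothelium 0% of 11683 genes passed at 10 weeks, 0% at 18 weeks and 0% in the difference, and 427, 362 and 407 genes had an unadjusted p under 0.05 (DESeq2 passed 7, 0 and 6). The member with such a p was Igf1 at 18 weeks (-0.83, SE 0.38, adjusted p = 0.999), which stood at -0.55 in cells of 1 gate. In leukocytes 0% of 9770 genes passed at 10 weeks, 0% at 18 weeks and 0% in the difference, and 272, 140 and 304 had an unadjusted p under 0.05 (DESeq2 passed 4, 2 and 3). There it was Igfbp6 in the difference of the times (1.95, unadjusted p = 0.0442 by edgeR), which stood at 1.07 in cells of 1 gate. Members without overlap at 10 weeks were 3 in endothelium, Igfbp4, Igfbp5 and Igfbp6 (27.4% of genes), and 3 in leukocytes, Igf1, Igfbp4 and Igfbp6 (31.9% of genes), all lower in Smad3SmKO. At 18 weeks there were 0 in either, where 0.0685% and 0.0409% of genes did not overlap.

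Time of digestion, which differed between batches, moved with Igfbp2. At 18 weeks, 7 libraries were digested for 30 min and 5 for 60 min, so digestion and batch cannot be told apart. Igfbp2 in VSMCs was 10.7, 95.3 and 506 CPM (lowest, median, highest) at 30 min and 283, 675 and 1541 CPM at 60 min. The log2 difference with genotype in the model was 2.48 (SE 0.50, edgeR adjusted p = 0.0114). It was 2.19 (adjusted p = 0.0816) without the batch that held no Smad3+/+ library. The digestion fits, here and in fibroblasts, had no batch term, so their SE and adjusted p treat mice of 1 batch as independent. Igfbp5 was 134 ± 146 and 27.1 ± 15.6 CPM (-2.01, SE 0.62, adjusted p = 0.0863) and did not pass. Nor did Igfbp7 (0.58, SE 0.22), Igfbp6 (1.23, SE 0.85), Igf1 (0.14), Igf1r (-0.12) or Igfbp4 (-0.08), and Igf2 and Igfbp3 did not reach the filter. Of 7 members tested 1 passed, where 3.55% of 10164 genes did.

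Fibroblasts showed the same for Igfbp2, with 0.350, 0.883 and 2.93 CPM at 30 min and 0.493, 18.4 and 92.7 CPM at 60 min (4.13, SE 0.77, adjusted p = 0.0225). It was the 1 of 8 members that passed, where 1.95% of 14285 genes did, and the call was lost without Smad3+/+ replicate 2, Smad3+/+ replicate 5, Smad3SmKO replicate 1 or Smad3SmKO replicate 2 (adjusted p of 0.0614, 0.122, 0.0571 and 0.0504). The other members stood at -1.13 for Igfbp3 (SE 0.48), -0.78 for Igf1 (SE 0.43), -0.53 for Igfbp5 (SE 0.59), 0.47 for Igfbp7 (SE 0.20), 0.46 for Igfbp6 (SE 0.65), 0.13 for Igf1r and 0.09 for Igfbp4. Without Smad3SmKO replicate 7, whose fibroblasts stood apart, Igfbp2 stood at 3.36 (adjusted p = 0.0216). Myh11 in the fibroblasts of these libraries ran from 6.01 to 21.2 CPM at 30 min and from 21.5 to 373 CPM at 60 min. The part of VSMC RNA in the Igfbp2 of fibroblasts was not tested.

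The subset make-up of the VSMCs also differed between the digestion times. The permutation tests on it shuffled libraries without regard to batch, and libraries of a batch shared a digestion time, so the p-values treat mice of 1 batch as independent. Notch3 and Enpep cells were 40.3 ± 17.7% of VSMCs at 30 min (SD, n = 7) and 12.3 ± 4.03% at 60 min (SD, n = 5), with an exact two-sided permutation p of 0.00253, the smallest this design gives, and 0.0253 after adjustment over 10 such tests. By genotype the share was 34.5 ± 23.9% in Smad3+/+ and 24.5 ± 16.6% in Smad3SmKO libraries (exact permutation p = 0.391). Within the Ptprz1 and Tes cells the log2 difference of Igfbp2, 60 min minus 30 min, was 2.54 (exact permutation p = 0.0476, adjusted 0.159), and within the Notch3 and Enpep cells it was 2.83 (exact permutation p = 0.0354, adjusted 0.159), neither of which passed after adjustment. Igfbp5 within the same subsets differed by -0.11 (exact permutation p = 0.921) and -1.31 (exact permutation p = 0.144). No genotype difference of either gene within a subset passed, with adjusted exact permutation p-values of 0.253 or more.

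**Figure D5:**
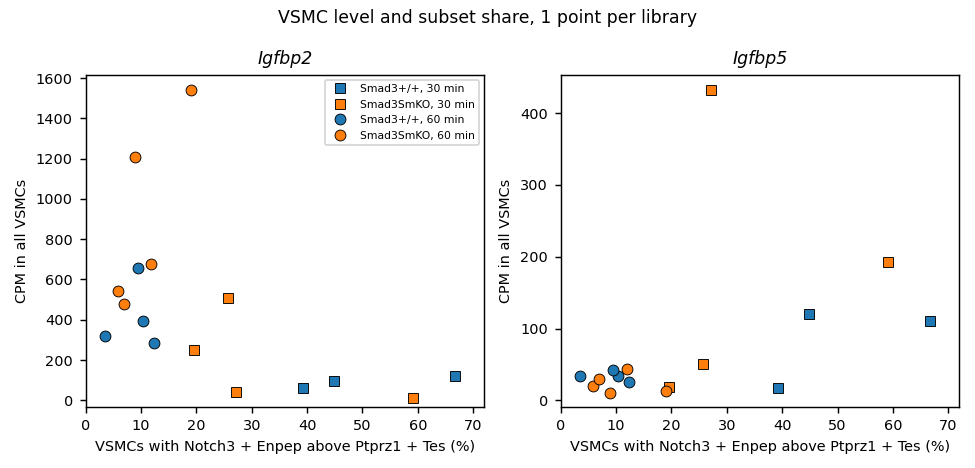
Level of Igfbp2 and Igfbp5 in all VSMCs of a library, in CPM, against the percent of its VSMCs that carried more Notch3 and Enpep than Ptprz1 and Tes, with 1 point for each of 16 libraries. The shares ran from 3.59% to 66.7%, and the highest Igfbp2 (1541 CPM) and the highest Igfbp5 (433 CPM) came from different libraries.

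Other genes of the pathway, a list of 34 receptors, adaptors, proteases and regulators, were read in the same fits. None passed in the 12 genotype comparisons of the cell types. Between VSMCs and fibroblasts 10 of 28 tested were higher and 11 lower, and between fibroblasts and endothelium 9 were higher and 5 lower, beside the shares of all genes given above. Against endothelium VSMCs were higher in 11 and lower in 10, and against leukocytes in 14 and 4. Fibroblasts and endothelium each exceeded leukocytes in 16 and were below them in 4. In cells of 1 gate, 11 of 27 pathway genes were higher and 9 lower in fibroblasts than in endothelium, where 6857 of 11149 genes passed, and endothelium exceeded leukocytes in 17 and was below them in 7. The insulin receptor gene Insr was higher in VSMCs than in fibroblasts by 1.00 and Igf2r, the clearance receptor for IGF-II, by 0.72. Pappa, the protease that cuts Igfbp4, was lower in VSMCs than in fibroblasts (log2 difference -4.17), and was 15.04 ± 6.11 CPM in fibroblasts (SD, n = 16). Grb14, an adaptor that inhibits insulin signalling, was 71.6 ± 23.1 CPM in VSMCs and higher there than in fibroblasts by 2.05. Grb2, the adaptor to Ras signalling, was 168 ± 44.1 CPM in leukocytes, and VSMCs were lower (log2 difference -1.65). Insr, Igf2r and Pappa, and the genes named in the subsets and by digestion, were named after their values were seen.

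The pathway genes highest in each cell type relative to the other 3, 2 for each type, were named by rule. In VSMCs they were Grb14 and Igfbp1, the latter with 1 UMI in all VSMCs, and in leukocytes Grb2 and the PI3-kinase subunit gene Pik3cb (11.8 ± 5.40 CPM). In fibroblasts they were Pappa2, a second pappalysin, at 2.98 ± 1.38 CPM, and the RNA-binding protein gene Igf2bp1 with 44 UMIs. In endothelium they were H19, the noncoding neighbour of Igf2, at 4.64 ± 8.20 CPM, and Stc1 at 14.4 ± 14.4 CPM, with fibroblasts lower in Stc1 (log2 difference -2.22). These endothelial values are of all gated cells, most of which also passed the fibroblast gate.

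In the VSMC subsets 1 of 18 pathway genes was higher in the Notch3 and Enpep cells, the receptor adaptor Grb10 (0.47), and 2 were lower, the protease gene Htra1 (-0.77) and the transcription factor Foxo1 (-0.36), where 25.5% of all genes passed. In the fibroblast subsets 5 of 28 were higher in the Pi16 and Dpp4 cells and 5 lower (22.6% of all genes). Among them the stanniocalcins, inhibitors of the pappalysins, parted, with Stc2 higher (2.18) and Stc1 lower (-1.47), and Pappa was lower (-0.49). In the C1q subsets of leukocytes 1 of 10 was higher and 4 were lower in the C1q-positive cells (43.5% of all genes). With digestion 1 of 25 was higher at 60 min in VSMCs, Htra1 (0.70), where 3.55% of all genes passed. The shares in the VSMC and C1q subsets and by digestion lay near those of all genes.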

How the data were processed

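Single-cell RNA libraries of the mouse aorta were made with droplet capture of 3′ ends. Per the labels and the study's methods, the authors aligned the reads with Cell Ranger version 6 to mm10 with a GFP sequence added and GENCODE M21 annotation, and worked in Seurat version 4. The headers of the deposited matrices name an earlier version of Cell Ranger. The deposited values are counts, whole numbers of UMIs per gene and cell, with no normalization.

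Following the study's limits, a cell was kept if its genes numbered between 600 and 6000, its UMIs lay between 2000 and 50000, and mitochondrial genes took less than 25% of them. No doublet caller was run, and cells of more than 1 gate were counted in each. Counts were summed for each library and cell type, so that the mouse was the replicate, and subset sums needed at least 10 cells. Tests used edgeR 4.0.16 in R 4.3.3 (TMM normalization, filterByExpr with a minimum count of 10 and a minimum total of 15, quasi-likelihood F-test, Benjamini-Hochberg adjustment over all genes, threshold 0.05). Genotype fits held batch, digestion fits at 18 weeks held genotype, and cell type and subset fits held the library as a block. Standard errors were the size of the log2 fold change divided by the root of F. DESeq2 1.42.0 was an alternative, and exact permutation tests (scipy 1.17.1) were run for 10 single values chosen after their levels were seen, with libraries as exchangeable units and no batch term. The scripts were tested on simulated data. The count limit for a gene at 0 is 3 counts of the total and, like UMI shares, covers counting error only.

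The rule named all 9 members in the comparisons of cell types, subsets, genotype and digestion; members described by counts alone or under the filter have no value of their own there. Pathway genes were named when past a genotype threshold or among the 2 highest in a cell type relative to the others, and the other pathway genes given (Insr, Igf2r, Pappa, and those of the subsets and digestion) were chosen after their values were seen. The members and the lists were chosen with earlier results of these data known. Alternatives were other size factors, no filter on low counts, all deposited cells, cells of 1 gate, doubled gates, no batch term, digestions apart, and each library left out.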

Additional observations from a re-analysis of the deposited data

Results flagged for a closer look

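A library was marked for a closer look where its level stood far from the other libraries of its group, by Dixon's criterion for groups of 4 to 10 samples. Of 65 groups tested 14 held such a library. Chance marks about 1 in 20 groups (5%) where values are normally distributed. Levels in CPM, some from few UMIs, need not be, so 14 is not read as an excess. These groups share libraries and cells that passed several gates, so the marks are not independent.

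Smad3SmKO replicate 6 at 18 weeks was the highest of its group for Igfbp6 in all 4 cell types: 51.2 CPM in VSMCs, where the next library of its group held 6.52 CPM, 1983 CPM in fibroblasts (next 714), 1177 CPM in endothelium (next 379) and 339.5 CPM in leukocytes (next 160.2). Among the 5 Smad3+/+ libraries at 18 weeks, replicate 5 was highest for Igfbp2 outside VSMCs, with 11.3 CPM in fibroblasts, 27.9 CPM in endothelium and 34.1 CPM in leukocytes, and for Igfbp5 in leukocytes with 327 CPM. Smad3SmKO replicate 7 had 92.7 CPM of Igfbp2 in its fibroblasts, the library whose fibroblasts held the most VSMC markers.

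Among the 7 Smad3SmKO libraries at 18 weeks, replicate 1 was highest in VSMCs for Igfbp5, with 433 CPM from 200 UMIs, and for Igfbp3, with 10.8 CPM from 5 UMIs. In the same group, replicate 4 had 413 CPM of Igfbp4 in VSMCs and 39.4 CPM of Igfbp3 in leukocytes. Replicate 2 had 281 CPM of Igfbp3 in endothelium.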

How the results depend on the processing

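Without the filter on low counts, the members called by genotype were 2 in VSMCs at 18 weeks (Igfbp5 and Igfbp6), 2 in VSMCs for the difference of times, 1 in endothelium at 18 weeks (Igf1) and 1 in leukocytes for the difference (Igfbp6), in place of 0 each, and those called by digestion in VSMCs were 5 in place of 1. Leaving out 1 library at a time kept every genotype count at 0. It gave 1 to 2 members for digestion in VSMCs, where Igfbp5 passed without Smad3+/+ replicate 1 or Smad3SmKO replicate 3, and 0 to 1 in fibroblasts. Digestion in VSMCs gave 2 without replicates 6 and 7 of Smad3SmKO and 0 without batch 5, both chosen after seeing the data.

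Cells that passed 1 gate only called 4 members between endothelium and leukocytes in place of 7. They turned the sign of Igfbp3 (0.0571) and Igfbp5 (2.26) for VSMCs against leukocytes, of Igfbp2 for fibroblasts against endothelium (1.81) and leukocytes (1.34), and of Igf1 (-1.12), Igfbp2 (-0.47) and Igfbp6 (-0.00136) for endothelium against leukocytes. The cause was not tested. Over libraries left out, the counts were 7 to 8 for VSMCs against leukocytes, 6 to 7 for fibroblasts against leukocytes, 6 to 8 for endothelium against leukocytes, 3 to 5 for the VSMC subsets and 4 to 5 for the C1q subsets. Igf1r in the VSMC subsets lost its call without replicate 1 or 5 of Smad3+/+ at 18 weeks, replicate 5 or 6 of Smad3SmKO at 18 weeks, or replicate 1 of either genotype at 10 weeks. Igfbp5 in the C1q subsets lost its call without Smad3SmKO replicate 1 at 18 weeks (adjusted p = 0.0551). Of 1352 alternative values of called differences between cell types, subsets or digestions, 1316 kept direction and call, 31 lost the call and 5 reversed. Most of these alternatives left out a single library and so shared nearly all of their data with the main fit.

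No paired analysis was possible because the labels give no replicate numbers that tie mice of the genotypes together. VSMC sums came from 22 to 1706 cells a library, and each group at 10 weeks held 2 libraries. The genotype value of Igfbp6 in VSMCs rested on Smad3SmKO replicate 6. The fit of 30 min digestions alone gave no value for Igfbp6 in VSMCs, since it passed no filter there.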

Other observations

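The genes whose levels were most like each member were sought over the 64 sums of library and cell type, among 9856 genes, by the correlation of log2(CPM + 1). The sums share libraries, depth and free RNA, and the correlations mostly follow the differences between cell types, so they are given as a description. Igf1 was nearest to Cygb (Pearson r = 0.942) and Dnm1 (0.939), Igfbp6 to Pi16 (0.952) and Cygb (0.951), and Igfbp4 to Pcolce (0.966) and Srpx (0.936). Igfbp5 was nearest to Mfap2 (0.903) and Dpt (0.893), Igfbp3 to Vit (0.884) and Lima1 (0.859), and Igfbp7 to Bgn (0.968) and Gstm2 (0.961). Igfbp2 was nearest to Hspb6 (0.913) and Ptprz1 (0.911), the latter a gene that also defined the VSMC subset in which Igfbp2 was higher. Igf1r was nearest to Hipk3 (0.859) and Fyco1 (0.858). For Igf2, which had few UMIs, the nearest were Btnl9 (0.656) and Ccm2l (0.621).

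Igfbp2 in the remaining gates is given by digestion time over all gated cells. At 18 weeks it was 0.764 ± 1.29 CPM in the endothelial gate at 30 min (SD, n = 7) and 153 ± 186 CPM at 60 min (SD, n = 5), and in leukocytes 0.0732 ± 0.194 and 36.3 ± 31.5 CPM. Igfbp7 in leukocytes was 433 ± 228 CPM at 30 min and 1728 ± 808 CPM at 60 min. Pooled over all libraries, Igfbp2 was 44.9 CPM in the endothelial gate and 2.44 CPM in its cells of 1 gate, and in leukocytes 26.0 and 3.90 CPM. Pooled Igfbp7 in leukocytes was 1321 CPM in all gated cells and 157 CPM in those of 1 gate. Summed VSMC markers reached 30655 CPM in the endothelial gate and 9466 CPM in leukocytes. The libraries of the 2 times share no batch, and neither these differences nor the part of VSMC RNA in them was tested.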
